A study of Mus musculus with 30 samples.

Results

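The proteasome is assembled from the products of many genes, and 46 of them were followed here in peripheral blood mononuclear cells (PBMC) of mice after an intravenous injection of oleic acid. Members were all genes on the array whose symbol is Psma, Psmb, Psmc, Psmd, Psme, Psmf or Psmg followed by a number. The array carried 48 such genes, and a gene was kept when the scanner software had marked a probe of it as well above background on 15 arrays or more of 30. Of 17485 genes kept by that filter, 46 were proteasome subunit genes, measured by 59 probes. The 2 subunit genes left out were Psma8, a testis subunit, well above background on 2 arrays, and Psmb11, a thymus subunit, well above background on 5 arrays. In all 46 kept genes the probe that stood for the gene was well above background on 30 of 30 arrays, so none of them lay near the filter. Among second probes the lowest inside the filter were those of Psmd10, with 17 arrays, and Psmb9, with 19 arrays.

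The study followed blood in a mouse model of acute lung injury, in which oleic acid (OA) was given through the tail vein, and set it against physiological serum given the same way. Each of the 30 arrays measured 1 female C57BL/6 mouse of 6 weeks. OA was given at 1.2 µl per g of body weight in an injection of 200 µl, and control mice received the same volume of physiological serum; all were anaesthetised with xylazine and ketamine. Blood was taken 1, 1.5, 3, 4, 18 or 24 h later, and PBMC were separated on a Ficoll layer of density 1.084. OA groups held 3, 3, 3, 2, 3 and 3 arrays at these times and serum groups 3, 3, 2, 1, 2 and 2 arrays, 17 and 13 in all.

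The proteasome is the barrel-shaped protease that degrades proteins tagged with ubiquitin. Alpha subunits form the outer rings that gate the barrel, and beta subunits form the inner rings, where 3 of them carry the active sites. In blood leukocytes and in cells exposed to interferon gamma, the inducible subunits Psmb8, Psmb9 and Psmb10 can take the place of Psmb5, Psmb6 and Psmb7, which gives the immunoproteasome and changes the peptides offered to MHC class I. A cap of ATPases (Psmc) and non-ATPase subunits (Psmd) binds and unfolds ubiquitinated proteins, activators (Psme) open the gate in another way, Psmf1 can inhibit the core, and Psmg chaperones help to build it.

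Levels are given as log2 signal over the array's 75th percentile, so that a value of 3 is 8 times that percentile. A level belongs to its own probe and is compared only between arrays. Because the arrays measured RNA of mixed cells, fewer cells of a type and less RNA per cell cannot be told apart.

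For the subunit genes 2 arrays stood apart. The median level of the 46 genes was 2.06 on serum 24 h replicate 1 and 2.06 on OA 4 h replicate 2, and between 2.75 and 3.61 on the other 28 arrays. Of the 46 genes, 35 (76.1%) had their lowest level on serum 24 h replicate 1 and 7 (15.2%) on OA 4 h replicate 2, against 38.6% and 11.3% of all genes. These were also the arrays with the highest signal from intergenic probes, at -3.51 and -3.83, against -6.42 at the other end of the series. Serum 24 h replicate 1 had the lowest correlation with the other arrays, with a median of 0.833 in a range up to 0.963. Psme3, which encodes the nuclear activator, and Psmf1, the inhibitor, ran the other way, with their highest levels of all on serum 24 h replicate 1 (3.22 and 3.18). The part of these array properties in the results was not tested, and the differences at 4 h and 24 h are also given without them.

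**Figure D1:**
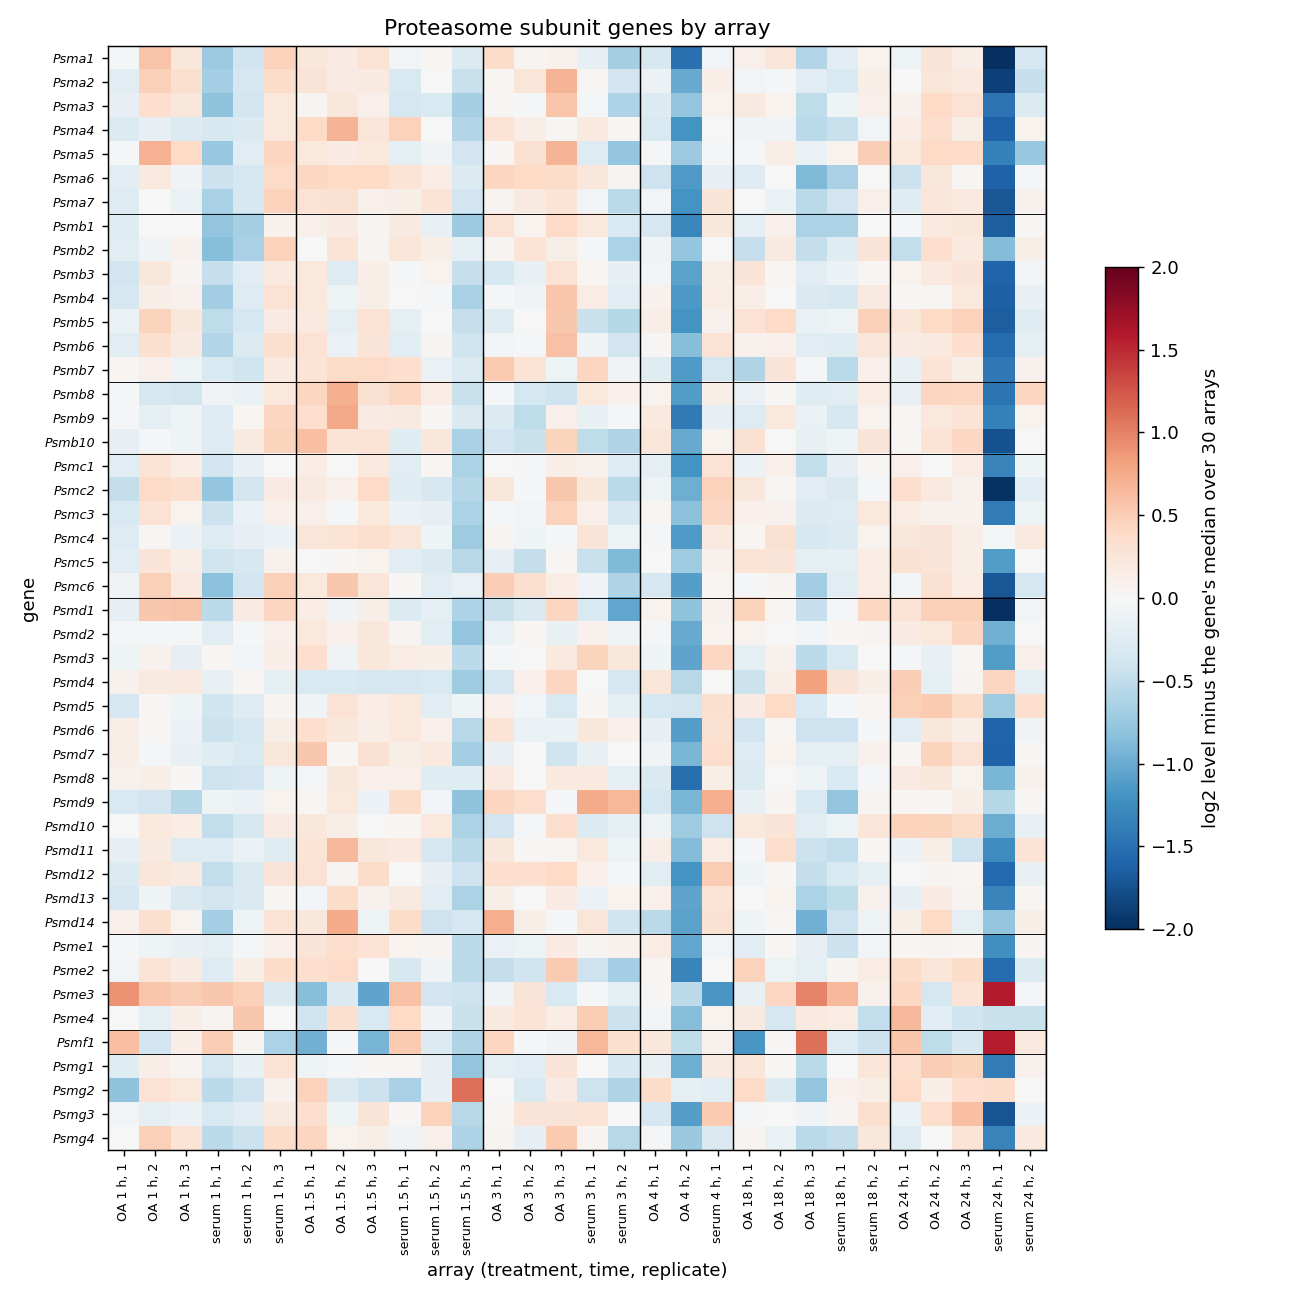
Level of each of the 46 subunit genes (rows) on each of the 30 arrays (columns), as log2 level minus the gene's median over all arrays; horizontal lines separate the alpha ring, constitutive beta ring, immune catalytic subunits, ATPases, non-ATPase subunits, activators, inhibitor and chaperones, and vertical lines the times. Serum 24 h replicate 1 and OA 4 h replicate 2 are blue across most genes, whereas Psme3 and Psmf1 are red on serum 24 h replicate 1.

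At 24 h, 14 of the 46 subunit genes (30.4%) were higher in OA than in serum mice at an adjusted p under 0.05 (limma, Benjamini-Hochberg over all genes), and none was lower. Over all genes tested 19% were called higher and 4.93% lower at this time. The 46 genes had a median log2 difference of 0.84, against 0.49 for all genes, and 44 of them lay above 0, against 65.8% of all genes. At an unadjusted p under 0.05, 27 subunit genes (58.7%) were higher, against 34.1% of all genes, and 0 were lower, against 9.41%. All OA arrays lay above both serum arrays for 24 genes (52.2%), against 34.8% of all genes, and below both for 0, against 15.8%. This result rested on serum 24 h replicate 1. Without it the serum 24 h group is 1 array, and the fit takes its spread from the other groups: 0 subunit genes and 4 of 17462 genes passed, 1 subunit gene was higher at an unadjusted p under 0.05, and the median difference was 0.20, against 0.11 for all genes, with 35 genes above 0. Leaving out OA 24 h replicate 1, 2 or 3 left 1, 0 and 0 called genes, and leaving out serum 24 h replicate 2 gave 39. No share of all genes was taken for these fits. Both serum 24 h arrays lay on slide 1 and the OA 24 h arrays on slides 2, 3 and 5, so no value within a slide could be had. With slide as a block 0 subunit genes and 2 of 17485 genes passed. The median difference was then 0.73, against 0.36 for all genes, and Psma5 differed by 1.14 (adjusted p = 0.207).

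The alpha ring had the most calls, with 4 of its 7 genes higher at 24 h and a median difference of 1.14. Psma5 had 3.56, 3.75 and 3.74 on the OA 24 h arrays, against 2.00 and 2.59 on the serum 24 h arrays. Both serum arrays were below all OA arrays, and the difference was 1.39 ± 0.33 (SE; adjusted p = 0.0215), a 2.61-fold change. It was 1.09 ± 0.40 without serum 24 h replicate 1 (adjusted p = 0.662), the only subunit gene still past an unadjusted 0.05. Psma2 had 5.56, 5.81 and 5.77 in OA mice, against 3.71 and 5.11 in serum mice, again without overlap, and differed by 1.31 ± 0.38 (adjusted p = 0.0272). Psma1 averaged 3.60 ± 0.18 in OA mice and 2.30 ± 1.24 in serum mice (SD, n = 3 and 2), and Psma3 averaged 4.84 ± 0.16 in OA mice and 3.71 ± 0.85 in serum mice. The wide serum SDs are the distance between the 2 serum arrays. Psma4, Psma6 and Psma7 had differences of 0.98, 0.75 and 0.88 and did not pass.

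In the constitutive beta ring 2 of 7 genes were called at 24 h, both of them catalytic. Psmb5, the subunit with the chymotrypsin-like site, had 5.83, 5.98 and 6.03 in OA mice, against 3.93 and 5.34 in serum mice, and differed by 1.31 ± 0.40 (adjusted p = 0.0305). Psmb6, with the caspase-like site, had 5.11, 5.15 and 5.29 in OA mice, against 3.42 and 4.76 in serum mice, and differed by 1.09 ± 0.37 (adjusted p = 0.0394). For both genes the second serum array lay closer to the OA arrays than to the first serum array. The other 5 genes had differences of 0.39 to 1.00.

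None of the 3 immune catalytic genes was called at 24 h. Psmb10 had 5.63, 5.87 and 6.01 in OA mice, against 3.85 and 5.60 in serum mice, and differed by 1.11 ± 0.42 (adjusted p = 0.0551). Psmb8 had 5.26, 5.84 and 5.82 in OA mice, against 3.95 and 5.83 in serum mice, with a difference of 0.75 ± 0.41 (adjusted p = 0.158). Psmb9 had 5.14, 5.31 and 5.37 in OA mice, against 3.75 and 5.17 in serum mice, with a difference of 0.81 ± 0.40 (adjusted p = 0.119). Serum 24 h replicate 2 lay within the OA range for Psmb8 and Psmb9, and just below it for Psmb10.

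In the cap the calls were spread over ATPases and non-ATPase subunits. Of 6 ATPase genes, Psmc2 (1.29 ± 0.41, adjusted p = 0.0341) and Psmc6 (1.17 ± 0.39, adjusted p = 0.0375) were called higher at 24 h. Psmc4 differed by 0.12 ± 0.31 and did not pass (adjusted p = 0.766). Of 14 non-ATPase genes 3 were called. Psmd1, the large scaffold of the base, had 2.50, 2.72 and 2.71 in OA mice, against 0.24 and 2.18 in serum mice, and its difference of 1.43 ± 0.45 (adjusted p = 0.0332) was the highest of the 46. Psmd7, the lid partner of the deubiquitinase Psmd14, differed by 1.06 (adjusted p = 0.0459), and Psmd10, a chaperone of base assembly also called gankyrin, by 1.00 (adjusted p = 0.0348). Psmd14 itself differed by 0.45 and the ubiquitin receptor Psmd4 by 0.00, and neither passed.

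The activators did not move as one. Psme2, which with Psme1 forms the interferon-inducible activator, had 6.47, 6.35 and 6.48 in OA mice, against 4.56 and 5.83 in serum mice, a difference of 1.24 ± 0.39 (adjusted p = 0.0337). Its other 2 probes gave 1.00 and 0.38 for the same comparison. Psme1 had 5.96, 5.97 and 5.96 in OA mice, against 4.70 and 5.97 in serum mice, and its difference of 0.63 was 0.00 without serum 24 h replicate 1. Psme3 averaged 1.75 ± 0.40 in OA mice and 2.42 ± 1.14 in serum mice, a difference of -0.67 ± 0.44 (adjusted p = 0.238), which was 0.14 without serum 24 h replicate 1. Psme4, the large nuclear activator linked to histone degradation, had 1.28, 0.42 and 0.24 in OA mice, against 0.20 and 0.19 in serum mice, and its 0.45 ± 0.37 did not pass (adjusted p = 0.347). Psmf1 averaged 1.51 ± 0.57 in OA mice and 2.49 ± 0.98 in serum mice, a difference of -0.98 ± 0.54 (adjusted p = 0.164) that was -0.29 without that array. Among the chaperones Psmg1 (1.08, adjusted p = 0.0407) and Psmg3 (1.19, adjusted p = 0.0332) were called, Psmg4 differed by 0.57 and Psmg2 by 0.10.

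**Figure D2:**
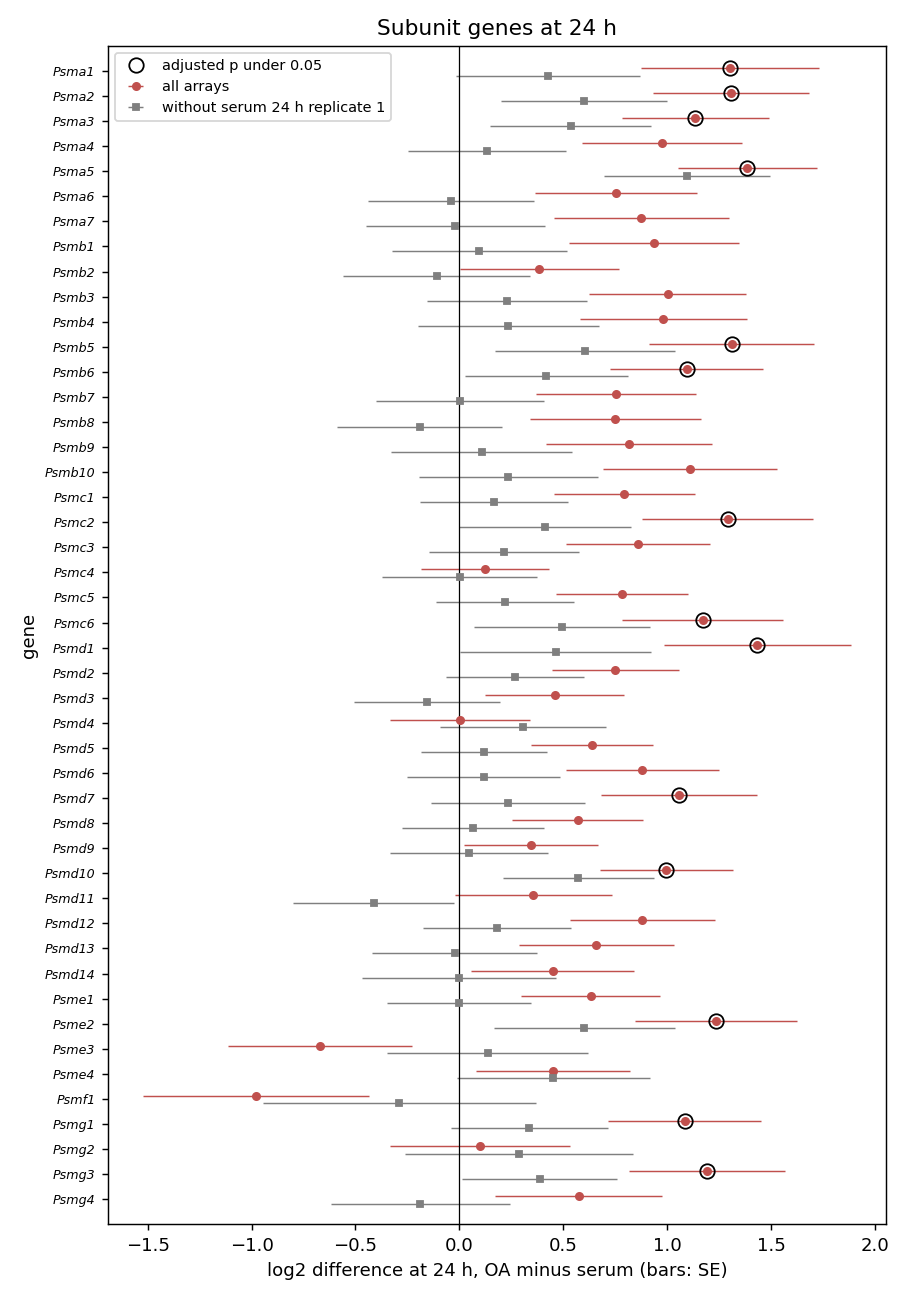
Log2 difference between OA and serum arrays at 24 h for each subunit gene, with all arrays (red circles) and without serum 24 h replicate 1 (grey squares); bars are standard errors of the limma fit and black rings mark an adjusted p under 0.05. The 14 ringed genes lie between 1.00 and 1.43 with all arrays, and no gene is ringed without the 1 array, where the range over all 46 is -0.41 to 1.09.

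A change of scaling moved the whole comparison. Each array was then scaled to the median of 14595 probes detected on all arrays. The median difference of all genes at 24 h was then -0.02 in place of 0.49, and that of the subunit genes 0.33 in place of 0.84. Either scaling subtracts a single value per array, so all genes shift alike and the distance between these medians could not change. With that scaling 3 of the 46 subunit genes passed, Psma2, Psma5 and Psmb5. That share is close to the 5.92% of all genes called higher, so it is not particular to subunit genes. Of the 46, 35 lay above 0 and 11 below. Psme3 and Psmf1 differed by -1.18 (adjusted p = 0.108) and -1.49 (adjusted p = 0.091). With both this scaling and serum 24 h replicate 1 left out, 0 subunit genes passed and the median was 0.07.

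**Figure D3:**
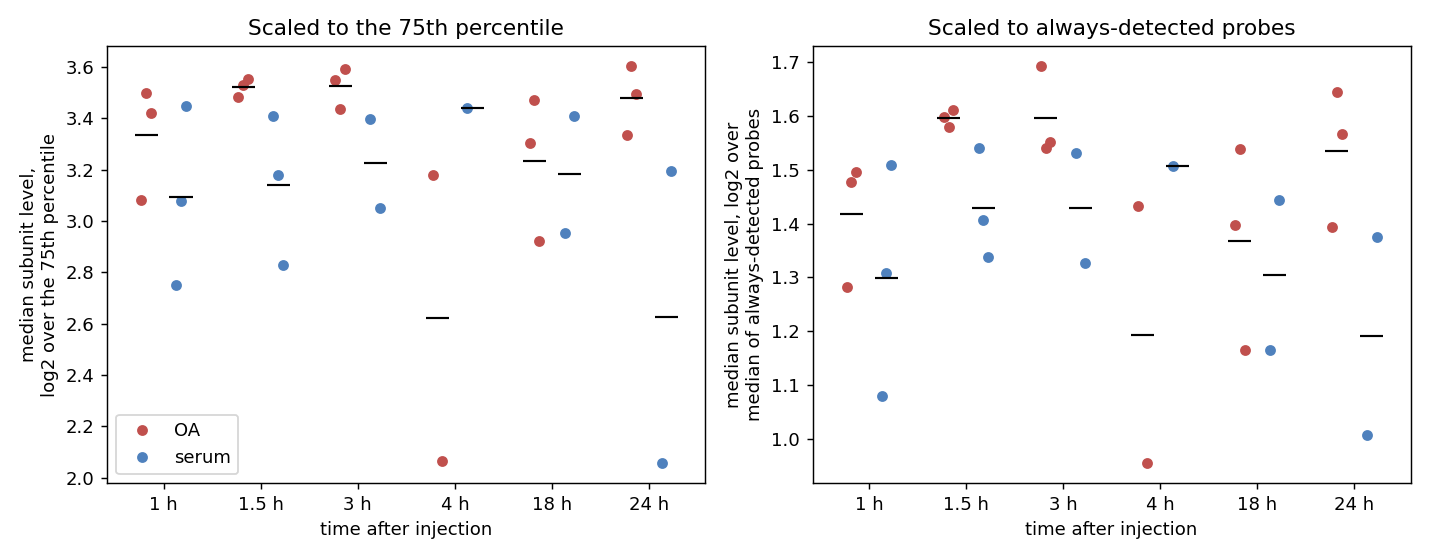
Median level of the 46 subunit genes on each array by time, OA in red and serum in blue, scaled to the array's 75th percentile (left) and to the median of always-detected probes (right), in log2 units; black lines are group means. On the left the lowest points are OA 4 h replicate 2 and serum 24 h replicate 1, both at 2.06, and the same 2 arrays are lowest on the right (0.95 and 1.01).

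In the first hours no subunit gene passed. At 1 h, 0 of 46 genes were called and 0 passed an unadjusted 0.05 (limma). Over all genes 0% were called, and 1.59% were higher and 3.73% lower at the unadjusted threshold (5.32% together). Of the 46 genes 36 lay above 0, against 56.4% of all genes. The median difference of the 46 was 0.18, against 0.08 for all genes. That median was 0.05 to 0.35 with each array of that time left out (0.05 without serum 1 h replicate 1, 0.35 without serum 1 h replicate 3). It was 0.06 under always-detected scaling, -0.05 within slide 1, and 0.03 after quantile normalization. For all genes these 3 settings gave -0.05, -0.04 and 0.04. Psma5 had 3.31, 4.04 and 3.75 in OA mice, against 2.60, 3.12 and 3.78 in serum mice, so the groups overlapped. For 2 genes all OA arrays lay above all serum arrays and for 1 gene below, against 3.8% and 7.19% of all genes. At 1.5 h, 0 genes were called and 0 passed the unadjusted threshold (0% of all genes called, 5.55% higher and 4.92% lower unadjusted). Of the 46 genes 42 lay above 0, against 65.4% of all genes, and the median difference was 0.36, against 0.21. It was 0.20 without serum 1.5 h replicate 3, against 0.09 for all genes. Under always-detected scaling it was 0.15, against -0.01, and with the authors' values 0.10, against 0.08. All OA arrays lay above all serum arrays for 17 of the 46 genes (37%), against 23% of all genes. Here OA arrays were close together, with subunit medians of 3.48 to 3.55, while serum arrays ran between 2.83 and 3.41. At 3 h, 0 genes were called (0% of all genes), and 1 was higher and 0 lower at an unadjusted p under 0.05 (6.49% and 3.8% of all genes, 10.3% together). The median difference was 0.20, against 0.10, and 34 genes lay above 0, against 56.3% of all genes. The median of the 46 was -0.01 after quantile normalization (all genes 0.02) and 0.06 under always-detected scaling (all genes -0.04). It was 0.02 without serum 3 h replicate 2 and 0.36 without serum 3 h replicate 1. OA arrays lay above all serum arrays for 13 genes (28.3%, against 21.7% of all genes) and below for 3 (15.6% of all genes). Psma5 had the smallest p, with 3.37, 3.65 and 4.04 in OA mice, against 3.10 and 2.58 in serum mice, and differed by 0.85 ± 0.33 without passing the adjustment (adjusted p = 0.46).

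At 4 h the sign was the opposite and a single serum array stood for the controls; the fit assumes that it varies like the other groups. Of the 46 genes, 43 lay below 0 and 3 above it, against 30.4% of all genes above 0. The median difference was -0.68, against -0.40 for all genes. Again 0 genes were called (0% of all genes), and 7 were lower at an unadjusted p under 0.05 (15.2%, against 7.56% of all genes; 0 were higher, against 1.03%, and 8.59% of all genes passed in either direction): Psmc1, Psmd3, Psmd8, Psmd9, Psmd12, Psmd14 and Psmg3. Psmd9, a chaperone of base assembly, had 0.39 and -0.18 in OA mice, against 1.47 in the serum mouse (difference -1.36 ± 0.43, adjusted p = 0.563). For 34 genes (73.9%) both OA arrays lay below the serum array, against 51.7% of all genes. Psme3 ran the other way, with 1.65 and 1.11 in OA mice, against 0.46 in the serum mouse. Without OA 4 h replicate 2, 34 genes still lay below 0, 1 passed the unadjusted threshold and the median was -0.20, against -0.11 for all genes. Without OA 4 h replicate 1 it was -1.18. Under the scaling to always-detected probes it was -0.17, against 0.11 for all genes.

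At 18 h the subunit genes lay close to 0. Of 46 genes 21 lay above 0 and 25 below, against 41.8% of all genes above 0. The median difference was -0.01, against -0.05 for all genes. Again 0 genes were called and 0 passed the unadjusted threshold (0% and 0.681% of all genes). The median was -0.21 without serum 18 h replicate 1 and 0.15 without serum 18 h replicate 2. The differences ran between -0.33 (Psmg2, a chaperone of alpha ring assembly) and 0.33 (Psmf1). Only 1 gene had groups without overlap, with OA below serum, against 2.44% of all genes.

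Averaged over the 6 times with equal weight, 39 of 46 genes lay above 0, against 57.7% of all genes. The median difference was 0.11, against 0.06 for all genes. None was called (0% of all genes), and 3 were higher at an unadjusted p under 0.05, Psma3, Psma5 and Psmd10, against 10.2% of all genes, and 0 lower, against 8.22%. The median was 0.01 without serum 24 h replicate 1. Psma5 differed by 0.42 ± 0.14 (adjusted p = 0.214) and was the higher of the groups by mean at 1, 1.5, 3 and 24 h, and the lower at 4 and 18 h.

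Within each treatment the next day (18 and 24 h) was set against the first hours (1 to 4 h). In OA mice 0 subunit genes were called (0.36% of all genes), 1 was higher and 0 lower at an unadjusted p under 0.05 (6.55% and 4.23% of all genes), and the median difference of the next day from the first hours was 0.11, against 0.07 for all genes; it was -0.0042 without OA 4 h replicate 2 and 0.21 without OA 4 h replicate 1. In serum mice 0 genes were called (0.463% of all genes, 0.0744% higher), and 1 was higher and 5 lower unadjusted (2.47% and 9.81% of all genes). Of the 46 genes 40 lay below 0 and 6 above it, against 37.5% of all genes above 0. The median was -0.34, against -0.13. Without serum 24 h replicate 1 it was 0.0042, and without serum 24 h replicate 2 it was -0.68. Psme3 lay at 0.86 ± 0.30 in that comparison, the highest of the 46, and did not pass (adjusted p = 0.217). The OA effect of the next day exceeded that of the first hours by a median of 0.43, against 0.25 for all genes, with 0 genes called (0% of all genes) and 2 higher and 0 lower unadjusted (6.21% and 2.59% of all genes); the median was 0.10 without serum 24 h replicate 1. In F tests over the 6 times, 0 subunit genes passed for a difference between OA times, between serum times, or in their OA effect between times, against 0.269%, 0.132% and 0% of all genes. At an unadjusted p under 0.05 the counts were 3, 2 and 4, against 15.3%, 14.9% and 12.8% of all genes.

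The immune subunits were then set against the subunits they replace. In each array the mean level of Psmb5, Psmb6 and Psmb7 was subtracted from that of Psmb8, Psmb9 and Psmb10; the value has no meaning by itself, because the probes differ, but its change between arrays does not depend on a scaling factor per array. At 1 h it was 0.89, 0.38 and 0.56 on the OA arrays, against 1.12, 1.22 and 0.98 on the serum arrays. All 3 OA arrays were below all 3 serum arrays, and the means differed by -0.50. At 3 h it was 0.55, 0.33 and 0.55 on the OA arrays, against 0.73 and 1.02 on the serum arrays, again without overlap, a difference of -0.40. These are values of a chosen set and carry no test, and no share of all genes stands beside them. The difference of the means exceeded the SD within groups pooled over all times, 0.19, but the OA 1 h arrays alone had an SD of 0.26. The nearest arrays of OA and serum lay closer than that pooled SD, at 0.89 and 0.98 at 1 h and at 0.55 and 0.73 at 3 h.

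At 1 h the gap came from both sides: the 3 immune genes had differences of -0.17 to -0.25, and Psmb5, Psmb6 and Psmb7 of 0.41, 0.27 and 0.18. At 3 h it came from Psmb8 (-0.42) and Psmb9 (-0.15) against Psmb5 (0.60) and Psmb6 (0.39), while Psmb10 (0.43) was above its counterpart Psmb7 (0.05). Psmb8 had 5.38, 5.05 and 4.99 in OA mice at 3 h, against 5.61 and 5.51 in serum mice, with every OA array below both serum arrays. Psmb10 had 5.22, 5.16 and 6.05 in OA mice, against 5.10 and 5.00 in serum mice, with every OA array above. Over all genes 15.6% had every OA array below both serum arrays at 3 h, and 21.7% every OA array above. None of these single-gene differences passed (adjusted p from 0.539 to 0.962 at 3 h).

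Of the 6 OA arrays at 1 and 3 h, 3 lay on slide 5, which held OA arrays alone and was scanned on a day of its own. Within slide 1 the difference was -0.16 at 1 h, with 1 OA and 2 serum arrays, and -0.69 at 3 h, with 1 array each. With slide as a block it was -0.41 and -0.43. The choice of probe also mattered: the second probe of Psmb5 differed by -0.07 at 1 h and -0.18 at 3 h. The second probe of Psmb9, well above background on 19 arrays, differed by -0.84 at 1 h and -0.01 at 3 h. With all kept probes of a gene averaged, both of these included, the values were -0.53 at 1 h and -0.24 at 3 h. At 1.5, 4, 18 and 24 h the same value was 0.16, 0.04, -0.04 and -0.16, none larger than the SD within groups.

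**Figure D4:**
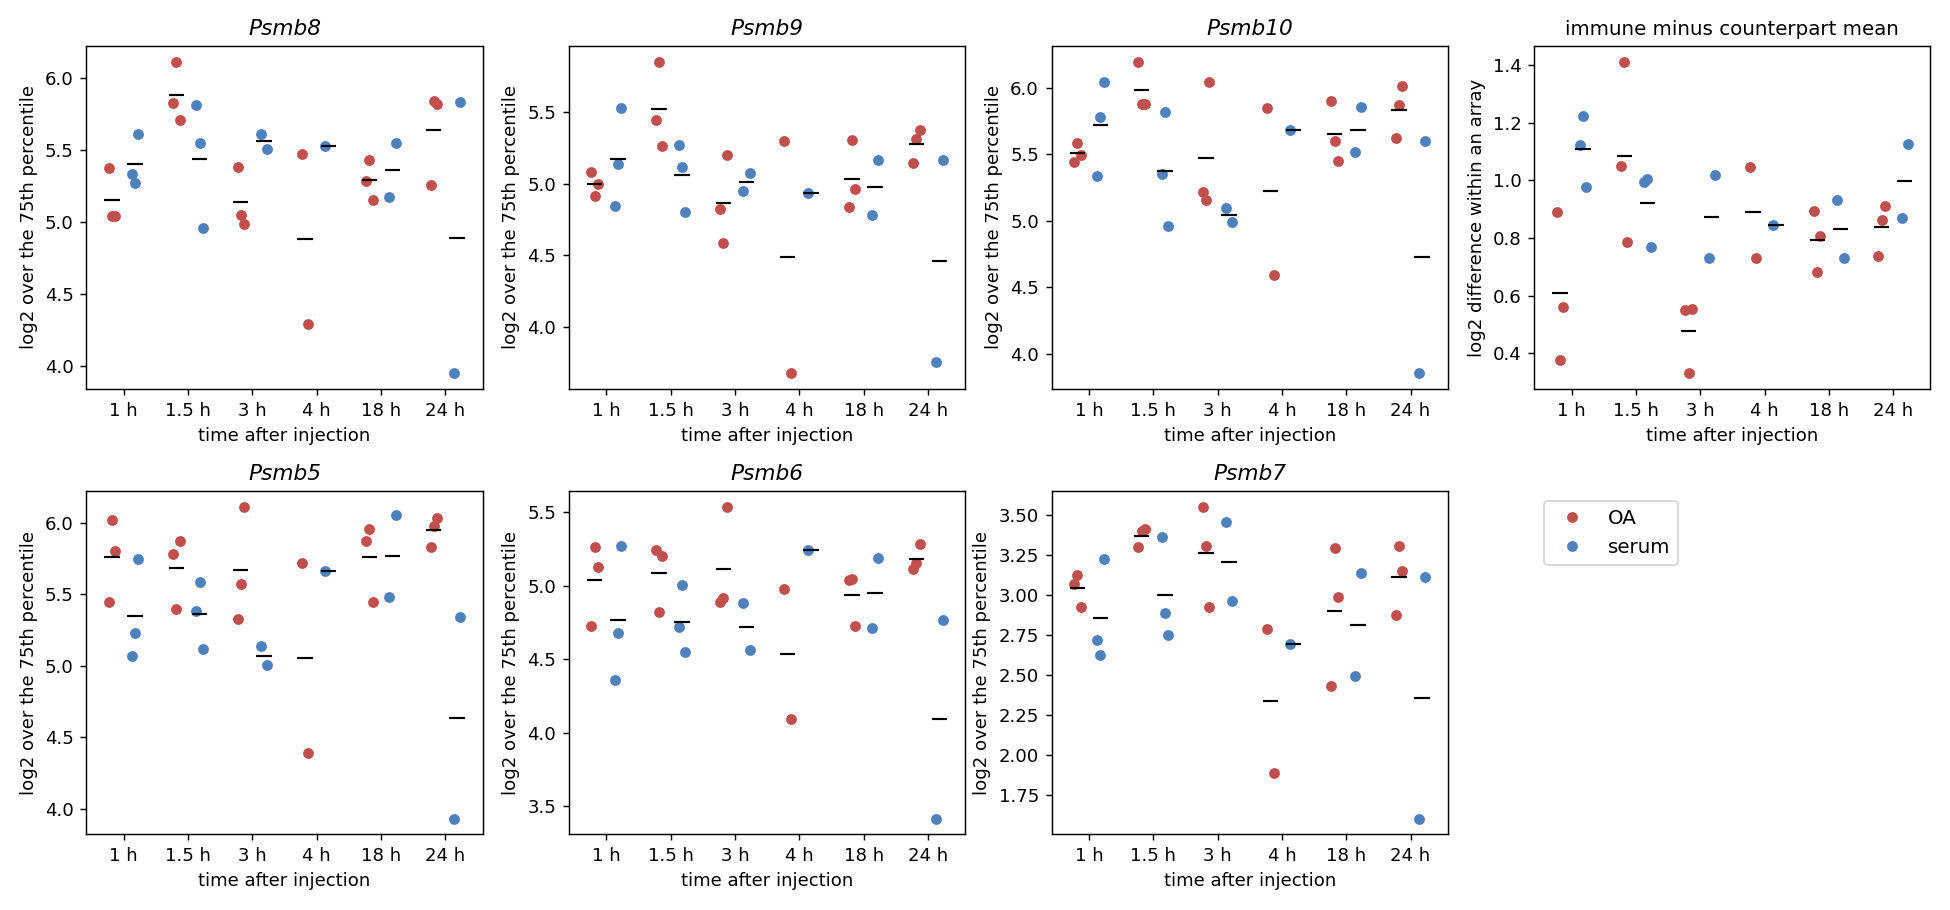
Levels of the immune catalytic genes (top) and of the constitutive genes they replace (bottom) on each array by time, in log2 over the 75th percentile, with the per-array difference of the 2 means at top right; OA is red, serum blue and black lines are group means. In the difference the OA arrays lie at 0.38 to 0.89 at 1 h and 0.33 to 0.55 at 3 h, below all serum arrays of the same time.

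Psmb9, Tap1, Psmb8 and Tap2 are neighbours in the MHC on chromosome 17, Psme1 and Psme2 lie either side of Emc9 on chromosome 14, and the 48 genes as a whole lie on 16 chromosomes. RefSeq promoter windows from 250 bases before to 50 after the start were found for 39 of the 46 genes (build GRCm38.p6). Shown are 140 bases of 4 of them, 120 before the start and 20 after it, for the 2 constitutive catalytic genes called at 24 h, for Psmb8, and for Psme1, all 5′ to 3′ on the gene's own strand. The same stretches of Psmb9 and Psmb10, the other immune catalytic genes, held no match to these 3 motifs. Capitals mark a match to an antioxidant response element (TGACNNNGC) in Psmb5 and Psmb6, to a gamma-activated sequence (TTCNNNGAA) in Psmb8 and to an interferon regulatory factor element (GAAA, 2 bases of any kind and GAAA, here on the other strand) in Psme1. The windows are chr14:54617976-54618115 on the minus strand (Psmb5), chr11:70525237-70525376 on the plus strand (Psmb6), chr17:34198075-34198214 on the plus strand (Psmb8) and chr14:55578374-55578513 on the plus strand (Psme1).
Psmb5: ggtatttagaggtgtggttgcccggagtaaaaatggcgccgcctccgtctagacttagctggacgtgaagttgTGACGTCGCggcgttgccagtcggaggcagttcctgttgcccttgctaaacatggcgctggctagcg
Psmb6: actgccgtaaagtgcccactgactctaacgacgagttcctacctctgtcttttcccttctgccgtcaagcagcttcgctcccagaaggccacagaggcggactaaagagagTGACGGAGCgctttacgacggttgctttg
Psmb8: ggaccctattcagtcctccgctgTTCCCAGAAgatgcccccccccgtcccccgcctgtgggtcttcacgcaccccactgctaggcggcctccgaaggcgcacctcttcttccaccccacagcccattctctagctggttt
Psme1: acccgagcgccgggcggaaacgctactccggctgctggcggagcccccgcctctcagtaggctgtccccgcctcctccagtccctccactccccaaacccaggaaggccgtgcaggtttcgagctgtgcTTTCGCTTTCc

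The antioxidant response element was found on either strand, in any window of a gene, for 6 of the 39 genes (15.4%) and for 14% of 27025 genes, the gamma-activated sequence in 3 (7.69%, against 9.55%), and the interferon regulatory factor element in 5 (12.8%, against 3.99%), which besides Psme1 were Psmb3, Psmd4, Psmd9 and Psmg4. A site for ETS factors (CCGGAAG) was found for 14 genes (35.9%, against 9.93% of all genes), among them Psma6, Psmc1, Psmc2, Psmd2, Psme3 and Psmg3. The CCAAT box (CCAAT) was in 13 (33.3%, against 41.1%), a YY1 site (AAGATGGC) in 3 (7.69%, against 3.19%), and an NF-kB site (GGGA and CC with 4 bases between) in 9 (23.1%, against 22.9%). The narrower form of the gamma-activated sequence (TTCCNGGAA, contained in the wider one) and the cyclic AMP response element (TGACGTCA) were in 0, against 1.35% and 2.03% of all genes. A match is a description of the letters and not a site in use.

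Genes that work with the proteasome were read beside it. Of 32 listed ubiquitin and proteasome partners, 27 were on the array and 26 were kept. At 24 h 8 of them were higher in OA mice and 1 lower at an adjusted p under 0.05, against 19% and 4.93% of all genes. Pomp, the chaperone that completes the core, had the smallest p, with a difference of 1.68 ± 0.42 (adjusted p = 0.0227). Nfe2l1, the transcription factor known to raise proteasome genes when degradation fails, was the lower one, at -1.67 ± 0.46 (adjusted p = 0.0253). Without serum 24 h replicate 1 none of the 26 was called and 1 passed an unadjusted 0.05, with Pomp at 0.85 (adjusted p = 0.733) and Nfe2l1 at -1.06 (adjusted p = 0.733). At the other 5 times 0 were called in either direction, and at an unadjusted p under 0.05 there were 0 at 1 h, 1 higher at 1.5 h (Uba6), 1 higher at 3 h (Pomp, 1.00 ± 0.42, adjusted p = 0.464), 4 lower at 4 h and 0 at 18 h. Over all genes 5.55% were higher at 1.5 h, 6.49% higher at 3 h and 7.56% lower at 4 h by that threshold.

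The 20 listed genes of MHC class I processing and the interferon gamma response were all kept. At 24 h 8 were higher in OA mice and 0 lower, against 19% and 4.93% of all genes, with the smallest p for Canx, a chaperone of class I folding (1.40 ± 0.41, adjusted p = 0.0288), and Irf8 (1.36 ± 0.42, adjusted p = 0.032); none was called, and 0 passed an unadjusted 0.05, without serum 24 h replicate 1, where Canx was at 0.48 and Irf8 at 0.52. At 1.5 h 19 of the 20 lay above 0, against 65.4% of all genes. Their mean difference was 0.54 and their median 0.45, against a median of 0.21 for all genes. At an unadjusted p under 0.05, 2 were higher (5.55% of all genes), Gbp3 (1.45, adjusted p = 0.406) and Irf1 (1.04, adjusted p = 0.432). At 3 h Erap1, which trims class I peptides, and B2m, the class I light chain, were higher by 1.75 and 1.54 without passing the adjustment (adjusted p = 0.46 for both). At an unadjusted p under 0.05, 2 of the 20 were higher at that time, against 6.49% of all genes. Of the immune catalytic genes, Psmb8 and Psmb9 lay below 0 at 3 h and Psmb10 above it, at 0.43. At 1 h 12 lay above 0 and 8 below, against 56.4% of all genes above 0.

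Some cell markers differed between the groups and others overlapped. All listed markers of T cells (7), B cells (6), NK cells (5), monocytes (7), neutrophils (7), platelets (7) and erythroid cells (8) were kept, so markers of each of these populations were detected in the PBMC preparations. The mean level of the monocyte markers was 3.44 to 3.86 on the OA 24 h arrays, against 0.80 to 2.15 on the serum 24 h arrays, with 7 of 7 above 0 and 4 called (19% of all genes were called higher). It was 1.35 to 2.97 on the OA 4 h arrays, against 3.95 on the serum 4 h array. At 3 h it was 3.25 to 4.02 on the OA arrays, against 2.64 to 2.66 on the serum arrays. At 1.5 h it was 3.62 to 3.79 on the OA arrays, against 3.08 to 3.32 on the serum arrays. The monocyte difference at 24 h was 2.15 with all arrays and 1.47 without serum 24 h replicate 1, where 0 monocyte markers were called and 3 passed an unadjusted 0.05. B cell markers were at 4.90 to 5.25 on the OA 24 h arrays, against 3.25 to 4.58 on the serum 24 h arrays, with 6 of 6 above 0 and 3 called; their mean difference was 1.15, and 0.49 with 0 called and 1 past an unadjusted 0.05 without serum 24 h replicate 1. The mean marker levels of neutrophils, platelets, T cells, NK cells and erythroid cells overlapped between the groups at 24 h. Neutrophil markers were at 4.39 to 6.16 on the OA arrays, against 4.99 to 5.21 on the serum arrays, and platelet markers at 5.05 to 6.30, against 4.85 to 6.45. Erythroid markers averaged 6.58 on the OA arrays, against 7.13 on the serum arrays, with 8 of 8 below 0 (mean difference -0.55). T cell markers had 7 of 7 above 0 (0.71, 1 called) and NK cell markers 5 of 5 (0.72, 0 called), against 65.8% of all genes above 0. Neutrophil markers had 6 of 7 above 0 and platelet markers 5 of 7. Without serum 24 h replicate 1 the T cell, NK cell and erythroid differences were -0.06, 0.13 and 0.24. Platelet markers were at 5.70 to 7.36 on the OA 1.5 h arrays, against 3.85 to 5.07 on the serum 1.5 h arrays, and erythroid markers at 4.96 to 5.61 on the OA 1.5 h arrays, against 5.85 to 6.69 on the serum 1.5 h arrays. B cell markers at 1.5 h were at 4.90 to 5.37 on the OA arrays, against 4.14 to 4.76 on the serum arrays, and platelet markers at 3 h were at 6.86 to 7.41 on the OA arrays, against 5.90 to 5.91 on the serum arrays. B cell markers overlapped at 3 h, with 4.24 to 4.66 on the OA arrays, against 3.28 to 4.85 on the serum arrays. At 1 h they were at 5.13 to 5.49 on the OA arrays, against 4.74 to 5.09 on the serum arrays, without overlap. The other listed populations overlapped between the groups at 1 h. Neutrophil markers were at 6.43 to 6.62 on the OA arrays, against 5.11 to 7.15 on the serum arrays at that time, and T cell markers at 4.77 to 5.51 on the OA arrays, against 5.14 to 5.44 on the serum arrays. The part of these populations in the levels of the subunit genes was not tested.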

How the data were processed

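Total RNA of PBMC was measured on Agilent 1-colour arrays. The deposited scanner files hold Cy3 spot intensity, background-corrected by Feature Extraction 10.5.1.1 per the submitters' processing notes. Their genome positions are on mm9. A deposited table of log2 values, of unstated normalization, served as an alternative: its scale was read from its values (column medians 5.35 to 5.36), and each of the 30 columns resembled its own scanner file most.

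Control spots and outlier spots (91 to 1408 per array) were left out; 0 spots were saturated. Processed signals were divided by each array's 75th percentile (40.0 to 150 units) and log2-transformed, spots of a probe were averaged, and probes well above background on 15 or more arrays were kept (23304, for 17485 genes; 34.6% to 64.8% of probes per array were above background). Where a gene had several kept probes (12 subunit genes), the brightest on average stood for it. limma 3.58.1 (R 4.3.3) fitted 12 treatment-by-time means to all 30 arrays (18 residual degrees of freedom), two-sided, with Benjamini-Hochberg adjustment over all genes. The groups held 1 to 3 arrays, which limits the precision, and each array was taken as 1 mouse. The fit was tested on simulated data with independent noise in each gene. That setting cannot show how the fit treats a shift shared by many genes of an array. Genes were named by rule: the catalytic pairs, activators and inhibitor, the 6 called genes of smallest p, and the 2 of smallest p each way elsewhere; other genes were named after their values were seen. Members, lists and alternatives were chosen with earlier results of these data known. Slides (5) and scan days (2) were read from the files; intergenic probes were taken by their description, because their gene name does not mark them. Alternatives covered scaling, background, filter, probe choice, slide, replicate block and each array left out.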

Additional observations from a re-analysis of the deposited data

How the results depend on the processing

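The count of subunit genes called at 24 h was 14, and 3 when arrays were scaled to always-detected probes. It was 8 after quantile normalization, 34 after normexp background correction and 0 with slide as a block. With the authors' deposited values it was 9 (8 higher, and Psmf1 lower). Another setting left out 3 arrays, which were serum 1.5 h replicate 3 and the 2 described above as standing apart. No criterion is given here for leaving out serum 1.5 h replicate 3. Its subunit median of 2.83 was above the 2.75 of serum 1 h replicate 1, which was kept. A last setting combined always-detected scaling with serum 24 h replicate 1 left out. Like slide as a random block, that combination was added after seeing the data. Both settings left 1 serum array at 24 h, so only median differences are given for them. Over all genes the share called higher at 24 h was 19% in the fit first described. It was 5.92% under always-detected scaling, 10.6% after quantile normalization and 28% after normexp. With the authors' values it was 14.6%, and with slide as a block 0.00572%. The median difference at 24 h, 0.84, was 0.33, 0.33, 0.34, 0.20 and 0.074 under always-detected scaling, quantile normalization, the authors' values, the 3 arrays left out, and the last combination. For all genes these settings gave -0.02, 0.18, 0.27, 0.11 and -0.02, in place of 0.49. At 4 h the median, -0.68, was -0.17, -0.20, -0.24, -0.20 and -0.17 under the same settings, and -1.18 within slide 3. The values for all genes were 0.11, -0.11, -0.24, -0.11 and 0.11, and -0.72 within slide 3, in place of -0.40. The median OA effect of the next day over the first hours was 0.0022 without the 3 arrays, against 0.026 for all genes. The difference between immune subunits and counterparts was -0.16 within slide 1 at 1 h, 0.41 within slide 3 at 1.5 h and -0.69 within slide 1 at 3 h. The cause of these changes was not tested. No result changed sign past its threshold, and the filters on dim probes, the averaging of probes and slide as a random block moved no count or median by more than the spread between replicates.

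Leaving out each array in turn gave 0 to 39 calls and medians of 0.20 to 1.54 at 24 h, medians of -1.18 to -0.20 at 4 h, and 0 to 1 calls for the mean of 6 times. Calls ran from 0 to 23 for serum, next day against first hours, from 0 to 10 for the OA effect, from 0 to 13 between serum times and from 0 to 22 for an OA effect that differs between times; each upper end came without serum 24 h replicate 2. No share of all genes was taken beside these counts, so they cannot be read as particular to the subunit genes. The immune difference stayed between -0.64 and -0.38 at 1 h and between -0.54 and -0.25 at 3 h. Leaving out the single serum 4 h array left no value at 4 h.

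Correlations between the deviations of same-numbered OA and serum arrays ran from -0.51 to 0.56 over 12 pairs, with 4 over 0.1. Values of both signs from groups this small cannot decide whether the numbers pair the arrays. With the replicate number as a block, 3 of the 46 subunit genes were called at 24 h, a smaller share than the 9.64% of all genes called higher. The median difference was 0.83, against 0.52 for all genes.

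Of 12 subunit genes with several probes, probes gave opposite signs for 6, 1, 4, 2, 7 and 0 genes at 1, 1.5, 3, 4, 18 and 24 h, with gaps of up to 0.92 (Psmb9 at 4 h).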
